A study of Mus musculus with 8 samples.

Results

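The 10 genes described here were Nkx2-1, Nkx2-2, Nkx2-3, Nkx2-4, Nkx2-5, Nkx2-6, Nkx2-9, Nkx6-1, Nkx6-2 and Nkx3-2, members of the Nkx group of homeobox transcription factors. Each was given the H3K27me3 regions that overlapped its GRCm38 gene body extended by 5 kb on both sides. By this rule the 10 genes met 10 of the 13585 regions in the table, 1 region per gene. No region was shared by a pair of these genes and no gene lacked a region.

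The mark was profiled with ChIP-seq, that is, sequencing of DNA pulled down with an antibody to H3K27me3, in neural stem cells (NSCs) grown as a monolayer from E14.5 cortices of female C57BL/6J embryos and kept for less than 10 passages. The wild-type (WT) cells had the genotype Smchd1GFP+/+ and the MommeD43 cells the genotype Smchd1GFPMommeD43/MommeD43, so both carried Smchd1 with a GFP tag and differed in the MommeD43 missense variant, which was homozygous in the latter. Each genotype had 3 ChIP libraries, each from a separate cell line, and 1 whole cell extract library. The table gives 1 log2 value per region for each genotype, which the authors pooled over its ChIP libraries, so no value below has an SD, a number of replicates or a p-value. Values of single lines and of the whole cell extract were not analysed here.

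SMCHD1 is a chromatin protein needed for silencing of the inactive X chromosome and of several autosomal gene clusters. H3K27me3 is placed by Polycomb repressive complex 2 and commonly covers developmental regulator genes in cells that do not use them. In the ventral neural tube and forebrain, Sonic hedgehog signalling induces several Nkx genes, and the factors they encode set up progenitor domains by repressing genes of neighbouring domains. Other Nkx genes act mainly in heart, gut, pharynx or skeleton. The cortex, from which these NSCs were grown, is a dorsal tissue.

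CpG content around the annotated starts differed greatly among the 9 genes with a RefSeq promoter. The promoters of the gene with lower H3K27me3 in MommeD43 (Nkx2-4), of its neighbour with higher H3K27me3 (Nkx2-2), of the gene with the highest difference (Nkx6-1) and of the gene with the deposited difference closest to 0 (Nkx2-1) are printed so that these 4 can be compared. Each runs from 250 bases before to 50 bases after the RefSeq start on GRCm38.p6, 5′ to 3′ on the strand of the gene, and capitals mark every CG.
Nkx2-4, chr2:147085296-147085595, minus strand: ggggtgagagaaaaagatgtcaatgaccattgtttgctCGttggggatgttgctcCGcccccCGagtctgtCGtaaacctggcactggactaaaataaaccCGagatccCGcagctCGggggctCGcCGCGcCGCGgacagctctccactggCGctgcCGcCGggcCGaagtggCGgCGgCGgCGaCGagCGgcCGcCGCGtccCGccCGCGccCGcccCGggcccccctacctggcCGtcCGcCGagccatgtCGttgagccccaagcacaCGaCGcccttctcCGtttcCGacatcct
Nkx2-2, chr2:147186353-147186652, minus strand: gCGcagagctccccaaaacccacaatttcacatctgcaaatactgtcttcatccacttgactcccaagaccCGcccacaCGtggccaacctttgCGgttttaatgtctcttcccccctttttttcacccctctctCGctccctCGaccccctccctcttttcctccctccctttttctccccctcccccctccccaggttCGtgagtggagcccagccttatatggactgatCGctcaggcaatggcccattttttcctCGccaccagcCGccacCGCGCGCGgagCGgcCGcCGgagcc
Nkx6-1, chr5:101664662-101664961, minus strand: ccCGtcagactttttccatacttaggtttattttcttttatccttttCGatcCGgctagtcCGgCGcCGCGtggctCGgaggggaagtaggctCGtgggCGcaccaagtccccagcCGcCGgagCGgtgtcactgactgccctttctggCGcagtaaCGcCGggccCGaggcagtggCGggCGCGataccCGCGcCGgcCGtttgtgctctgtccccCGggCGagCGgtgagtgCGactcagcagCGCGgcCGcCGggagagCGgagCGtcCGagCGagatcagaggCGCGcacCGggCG
Nkx2-1, chr12:56536859-56537158, minus strand: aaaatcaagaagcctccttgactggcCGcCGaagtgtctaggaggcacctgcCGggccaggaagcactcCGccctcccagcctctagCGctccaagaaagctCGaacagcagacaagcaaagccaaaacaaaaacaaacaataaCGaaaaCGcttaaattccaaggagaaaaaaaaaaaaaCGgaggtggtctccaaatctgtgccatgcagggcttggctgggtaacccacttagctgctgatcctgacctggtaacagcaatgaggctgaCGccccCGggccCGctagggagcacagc
The window held 38 CG in Nkx2-4, 17 in Nkx2-2, 40 in Nkx6-1 and 12 in Nkx2-1. The gene with lower and the gene with the highest difference therefore had nearly the same number. Among all 32851 RefSeq promoters of this length, the median was 7 CG, 4.95% held 38 or more and 39.6% held 12 or more.

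Of the other members, Nkx6-2 had 32 CG in its window, Nkx3-2 had 25, Nkx2-3 and Nkx2-9 had 15 each and Nkx2-5 had 9. RefSeq promoters were matched for 9 of the 10 genes, all but Nkx2-6, and all 9 lay inside the region of their gene. Windows belong to the RefSeq start, which is not the GENCODE start for 5 of the 9 genes. It lies 7841 bp from it in Nkx2-2, 3444 bp in Nkx2-5, 285 bp in Nkx6-1, 281 bp in Nkx3-2 and 100 bp in Nkx2-4, and only for Nkx2-4 of these is the GENCODE start inside the window. The motif GACCACCCA, the binding sequence of the GLI factors that act downstream of Sonic hedgehog, was searched on both strands and had no match in the 9 windows. It occurred in 0.253% of all promoters of the same length. In the whole regions, 60% of the member regions and 57.3% of the autosomal regions of 50 kb or more held a match.

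H3K27me3 over 9 of the 10 Nkx regions was higher in MommeD43 and over 1 it was lower. Among all regions 60.2% were higher, and among the 11707 autosomal regions 57.7% were. The difference (MommeD43 minus WT, log2) had a median of 0.25 over the 10 regions and ran from −0.70 for Nkx2-4 to 0.83 for Nkx6-1. No member differed by 1 or more in either direction, whereas 6.09% of all regions were higher and 3.03% lower by at least that much. Among autosomal regions alone, the class of all 10 members, these shares were 2.28% and 2.93%. When both columns were scaled to the same total over all regions, which lowers every difference by 0.24, the split became 5 higher and 5 lower and the median 0.0041, with 37.1% of all regions higher at that scaling.

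Of the 10 member regions, 8 were at least 50 kb long. The 556 autosomal regions of at least 50 kb that hold a protein-coding gene start, a comparison chosen after the data were seen, had a median difference of 0.28, and 80.2% of them were higher in MommeD43. Autosomal regions in general had a median of 0.075. With the trend over GC content removed, described below, the median of the 556 regions was 0.099 and that of the Nkx regions 0.25. With a further trend over density removed these were −0.042 and 0.026, with a trend over abundance removed −0.0095 and −0.072, and scaled to the total 0.041 and 0.0041. Which of both sets had the higher median therefore depended on the setting.

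Reads could be recovered in part from the lowest values in the table, and a read stood for 3.27 normalized counts in WT but 2.63 in MommeD43. The geometric mean number of reads per library then gives the smallest error that counting allows, quoted below as counting error. It leaves out all variation between cell lines, and since the reads carry no molecular identifiers it covers counting only. For all 10 members the 95% counting interval of the difference excluded 0, as it did for 64.3% of all regions. Among the 556 broad autosomal regions with a gene start it did so for 520. Depth was lowest for Nkx2-2, with 117 reads per library in WT and 245 in MommeD43, and highest for Nkx2-3 with 22586 in MommeD43. More of the mark in each cell, more cells that carry it and the scaling between libraries cannot be told apart in these values. The paper regards ChIP-seq as poorly suited to relative levels of a histone mark. By immunofluorescence it reports a modest decrease of H3K27me3 in MommeD43 NSCs, on the inactive X and over the nucleus. Single regions were not measured that way.

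The regions were long, and 9 of the 10 were denser in WT than the autosomal median, all but Nkx2-2 (23.4 normalized counts per kb). They had a median length of 60.3 kb and ran from 16.4 kb for Nkx2-2 to 172 kb for Nkx6-2. All 10 annotated gene starts lay inside, and 9 genes were covered whole, Nkx2-2 being covered over 67.0% of its length. The 10 regions made up 0.342% of the length of all regions and contained 1.03% of all WT normalized counts and 1.04% of those of MommeD43. Their median density was 185 normalized counts per kb in WT and 184 in MommeD43, against 36.0 and 37.0 over autosomal regions.

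**Figure D1:**
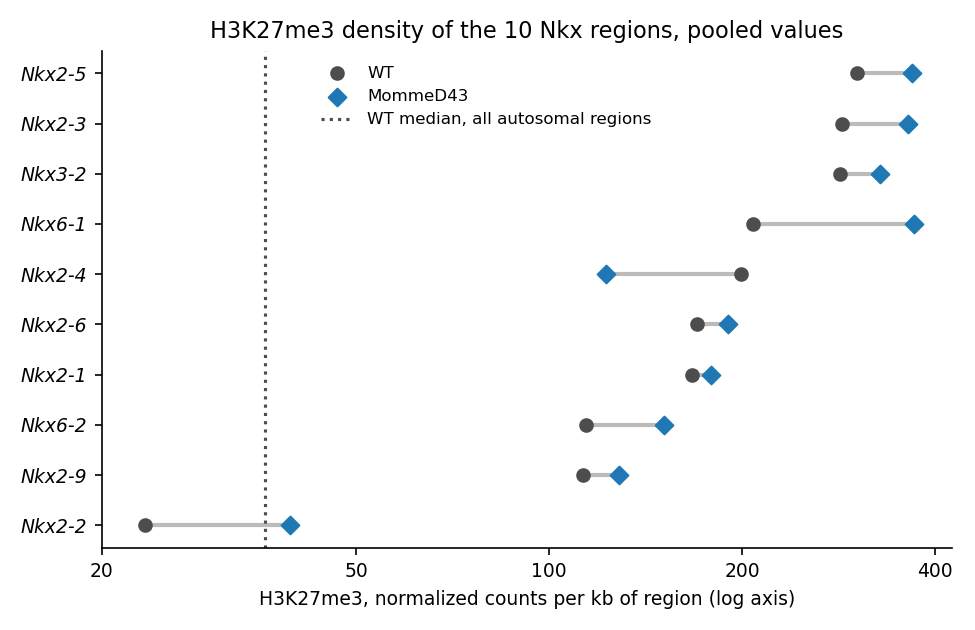
H3K27me3 in normalized counts per kb of region (log axis) for each Nkx region, with WT as circles and MommeD43 as diamonds, both pooled values of the authors, and the WT median of all autosomal regions (36.0) as a dotted line. Nkx2-5 is densest in WT (302), Nkx6-1 in MommeD43 (371), and in WT Nkx2-2 (23.4) lies below the dotted line.

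In WT the order of density was Nkx2-5, Nkx2-3, Nkx3-2, Nkx6-1, Nkx2-4, Nkx2-6, Nkx2-1, Nkx6-2, Nkx2-9 and Nkx2-2, from 302 down to 23.4 normalized counts per kb. Within this order Nkx2-3 and Nkx3-2, Nkx2-6 and Nkx2-1, and Nkx6-2 and Nkx2-9 differed by no more than the 95% interval of counting error. In MommeD43 the order was Nkx6-1, Nkx2-5, Nkx2-3, Nkx3-2, Nkx2-6, Nkx2-1, Nkx6-2, Nkx2-9, Nkx2-4 and Nkx2-2. There Nkx6-1 and Nkx2-5 alone differed by no more than that interval. Between the genotypes Nkx6-1 moved from the fourth to the first place and Nkx2-4 from the fifth to the ninth, and apart from these both lists kept the order of the other 8 genes.

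Nkx6-1 and Nkx6-2 encode repressors of the ventral neural tube, where they take part in motor neuron and interneuron specification, and Nkx6-1 is also needed in pancreatic beta cells. The Nkx6-1 region (chr5:101639451-101675200, gene at 101658139-101664996 on the minus strand) had a log2 value of 12.86 in WT and 13.69 in MommeD43. This was a difference of 0.83 with a counting error of 0.021, or 1.78-fold, and a density of 208 against 371 normalized counts per kb. It was higher than 96.2% of the differences of autosomal regions. The Nkx6-2 region (chr7:139519101-139691200, gene at 139579376-139582797 on the minus strand) had 14.26 in WT and 14.67 in MommeD43, a difference of 0.41 (1.33-fold) with a counting error of 0.014. It also covers the start of Cfap46 and part of Inpp5a. The difference of Nkx6-1 was larger than that of its paralog by 0.42 on the log2 scale, with a counting error of 0.025.

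All 4 other regions within 250 kb of its start, a window chosen after the data were seen, were higher in MommeD43. A pair without a protein-coding gene, at chr5:101517801-101528950 and chr5:101532951-101548450, lay on the side of the gene's 3′ end. The first of them had 8.59 normalized counts per kb in WT and 34.5 in MommeD43, 4.01-fold more with a counting error of 0.17 on the log2 scale. The second reached 61.4 in MommeD43, a difference of 2.08 ± 0.11 (counting error), or 4.23-fold. Both were sparse in WT, below the autosomal median of 36.0. Since peaks of either genotype entered the table, the direction of a region called in MommeD43 alone would be set by that choice, and the table does not say which genotype a region came from. Farther out on that side, a region of 5900 bp had a difference of 1.44 ± 0.28, and on the other side the region over Cds1 had 0.63 ± 0.056. Around Nkx6-2, 5 of 7 other regions were higher as deposited, none by more than 0.28, and 2 of 7 with the GC trend removed.

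Nkx2-2 and Nkx2-9 encode closely related factors of the cells next to the floor plate, where Nkx2-2 specifies ventral interneurons, and Nkx2-2 also acts in pancreatic endocrine cells and oligodendrocyte progenitors. The Nkx2-2 region (chr2:147183051-147199450, gene at 147177546-147194243 on the minus strand) had 8.58 in WT and 9.33 in MommeD43, a difference of 0.75 (1.68-fold). Its counting error of 0.094 was the largest of the 10 and its 95% counting interval ran from 0.57 to 0.93, so that it could not be ordered against Nkx6-1. Nkx2-2 was the odd member in WT: its density of 23.4 normalized counts per kb exceeded only 12.2% of autosomal regions, whereas 39.3 in MommeD43 exceeded 56.3% of them. The genotype in which this region was called is not known. If it was called in MommeD43 alone, its direction was set by that choice, as for the sparse regions near Nkx6-1. The antisense transcripts Nkx2-2os and 6430503K07Rik start inside the same region.

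The Nkx2-9 region (chr12:56582751-56645350, gene at 56611389-56613284 on the minus strand) had 12.79 in WT and 12.97 in MommeD43. The difference of 0.19 (1.14-fold) carried a counting error of 0.023. In contrast to Nkx2-2, its WT density of 113 normalized counts per kb exceeded 96.5% of autosomal regions.

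Nkx2-1 specifies ventral forebrain, thyroid and lung, and Nkx2-4 is its close relative of the ventral diencephalon. The Nkx2-1 region (chr12:56399301-56551900, gene at 56531958-56536908 on the minus strand) had 14.64 in WT and 14.73 in MommeD43, a difference of 0.09 (1.07-fold) with a counting error of 0.012. As deposited this was the closest to 0 of the family, whereas it was −0.15 when scaled to the total and 0.32 with the GC trend removed. The Nkx2-4 region (chr2:147070401-147127750, gene at 147083316-147085445 on the minus strand) had 13.48 in WT and 12.78 in MommeD43. It was the member with less H3K27me3 in MommeD43, at −0.70 (0.615-fold) with a counting error of 0.021 and a 95% counting interval from −0.74 to −0.66. Its density was 199 normalized counts per kb in WT and 123 in MommeD43, so it remained a dense region in both genotypes. It also had the lowest GC content of the 10 regions, 38.7%, and after removal of the trend with GC content its difference was −0.026. The region also overlaps Xrn2, and a value over 57.4 kb cannot place the difference at either gene.

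These genes lie in 2 linked pairs, Nkx2-2 with Nkx2-4 on chromosome 2 and Nkx2-1 with Nkx2-9 on chromosome 12, each pair next to a Pax gene. The starts of Nkx2-4 and Nkx2-2 are 109 kb apart and their regions 55.3 kb apart. Their differences had opposite signs and lay apart by more than 1 on the log2 scale, at 0.75 and −0.70, and with the GC trend removed they were 0.40 and −0.026. In WT the Nkx2-4 region was 8.53-fold denser than the Nkx2-2 region, and in MommeD43 it was 3.12-fold denser. Between them a region of 5300 bp had a difference of −0.54 ± 0.20 (counting error), and beyond Nkx2-2 the region over Pax1, a gene of the sclerotome and pharynx, had 0.14 ± 0.013.

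The starts of Nkx2-1 and Nkx2-9 are 76.4 kb apart, their regions lie 30.9 kb apart, and the differences of 0.09 and 0.19 lay 0.093 apart with a counting error of 0.027. The next region, over Pax9, had 0.24 ± 0.013. On the other side of Nkx2-1 the 4 regions within 250 kb were all lower in MommeD43 as deposited, from −0.90 to −0.38. Their GC content was low, 39.0% to 41.2%, and with the GC trend removed they ran from −0.34 to 0.020.

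**Figure D2:**
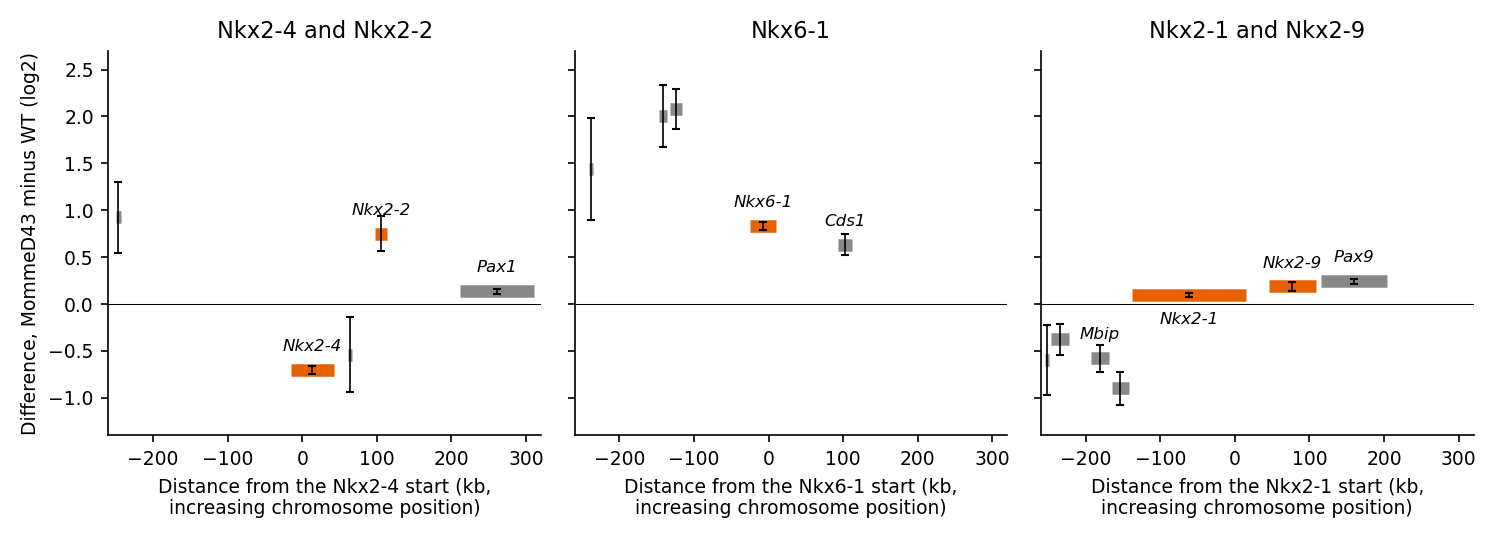
H3K27me3 difference (MommeD43 minus WT, log2, vertical axis) of every region against distance from the start of the named gene (kb, horizontal axis) in 3 intervals, with member regions in orange, other regions in grey and error bars for the 95% counting interval. Nkx2-4 (−0.70) and Nkx2-2 (0.75) lie on opposite sides of 0, Nkx2-1 and Nkx2-9 close together above it, and the regions around Nkx6-1 all above it.

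Nkx2-3, Nkx2-5 and Nkx2-6 are related to tinman of Drosophila and act outside the nervous system. Nkx2-5 is a regulator of heart development, Nkx2-3 of gut and spleen mesenchyme, and Nkx2-6 is expressed in pharyngeal pouches. The Nkx2-3 region (chr19:43519251-43683250, gene at 43612325-43615892 on the plus strand) had 15.52 in WT and 15.86 in MommeD43, a difference of 0.34 (1.27-fold) with a counting error of 0.0089. The Nkx2-5 region (chr17:26792451-26907850, gene at 26838664-26845009 on the minus strand) had 15.09 and 15.37, a difference of 0.28 (1.22-fold) with a counting error of 0.010. Both were among the densest regions of the genome, above 99.6% and 99.7% of autosomal regions in WT. The Nkx2-3 region holds the starts of Got1 and Slc25a28 as well, and the Nkx2-5 region overlaps Bnip1.

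The Nkx2-6 region (chr14:69152451-69210400, gene at 69171802-69175518 on the plus strand) had 13.27 in WT and 13.43 in MommeD43, a difference of 0.16 (1.12-fold) with a counting error of 0.020. Other annotated starts lie in it too, so the value cannot be placed at Nkx2-6 alone. Nkx3-2, a relative of bagpipe of Drosophila, maintains cartilage and vertebral precursors. Its region (chr5:41723001-41779300, gene at 41761483-41764501 on the minus strand) had 13.97 and 14.18, a difference of 0.21 (1.15-fold) with a counting error of 0.015. Nkx3-2, Nkx2-9 and Nkx2-6 followed each other in the order of differences, and each step among them was within the 95% counting interval.

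Within 250 kb of the 10 starts lay 45 other regions, of which 22 were higher in MommeD43 and 23 lower, with a median difference of −0.026. Higher were 57.7% of autosomal regions and 60.2% of all regions. Around Nkx3-2 all 3 were lower, from −0.81 to −0.29, beside a member region that was higher. Around Nkx2-3, 5 of 6 were lower as deposited and 3 of 6 with the GC trend removed. Around Nkx2-5, 7 of 10 were higher in both settings. With that trend removed the 45 regions again split into 22 higher and 23 lower. Beside this, 49.9% of autosomal regions, the class of all 45, and 55.9% of all regions were higher.

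**Figure D3:**
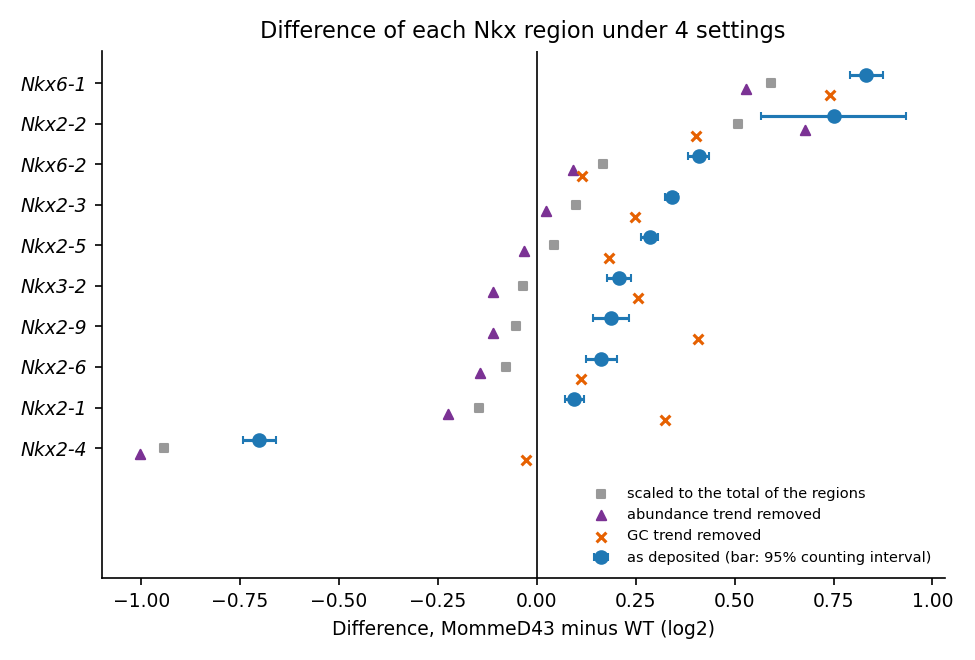
Difference of each Nkx region (MommeD43 minus WT, log2) as deposited, with bars for the 95% counting interval, and with both columns scaled to the total of the regions, the abundance trend removed or the GC trend removed. Nkx6-1 and Nkx2-2 lie above 0 in all 4 settings and Nkx2-4 below, at −0.70 before and −0.026 after removal of the GC trend.

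The difference between genotypes moved with the base composition of the regions. Across the 10 members, Spearman's rho between GC content and difference was 0.867, and across autosomal regions it was 0.583. Both describe pooled libraries, and the points share these libraries. Nkx2-4 had the lowest GC content of the 10, 38.7%, below all but 3.21% of autosomal regions, and Nkx2-2 had the highest, 51.9%. With the trend over GC content removed, Nkx2-4 stood at −0.026, Nkx2-2 at 0.40 and Nkx6-1 at 0.74. The Nkx2-4 difference was thus close to that of other regions of its GC content, whereas Nkx6-1 stayed above 96.0% of autosomal regions. The part of GC content in these differences was not tested.

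**Figure D4:**
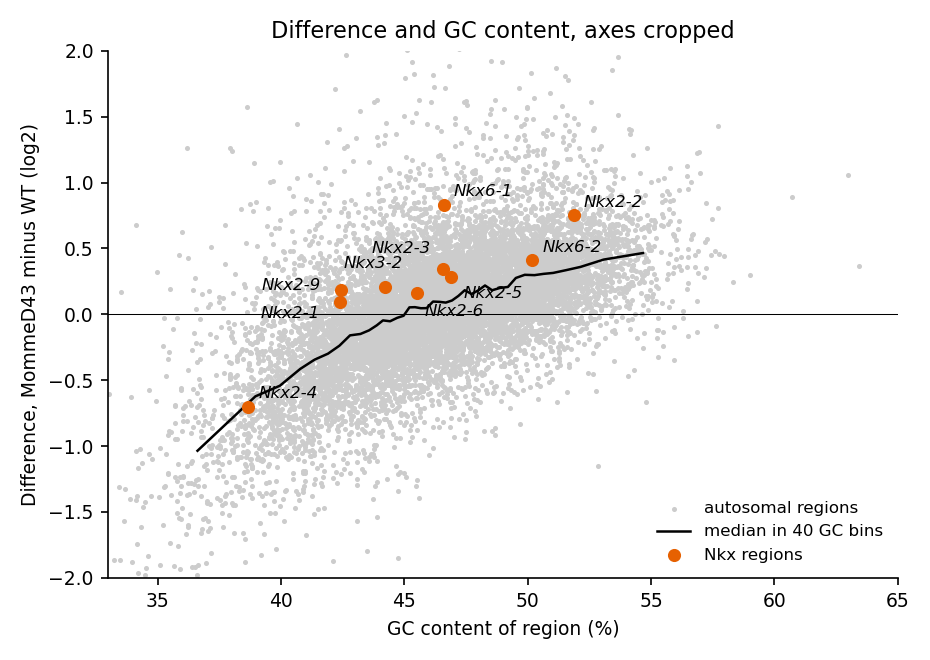
Difference (MommeD43 minus WT, log2) against GC content of the region (%) for autosomal regions (grey) and the 10 Nkx regions (labelled), with the median over 40 GC bins as a line and both axes cropped. Nkx2-4 (GC 38.7%) lies near the line, and Nkx6-1 (46.6%) well above it.

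With the GC trend removed the linked pair on chromosome 12 stood higher, Nkx2-9 at 0.41 and Nkx2-1 at 0.32, and the median of the 10 remained 0.25. The pair of regions without a protein-coding gene near Nkx6-1 kept their size, at 1.98 and 2.05. Across the deposited values and 5 other scalings or trend corrections, 4 members kept their sign: Nkx6-1, Nkx2-2 and Nkx2-3 were higher and Nkx2-4 was lower each time. Their size moved: Nkx6-1 ran from 0.52 to 0.83 and Nkx2-2 from 0.40 to 0.75. Nkx2-4 ran from −1.003 with the abundance trend removed to −0.026 with the GC trend removed. With its counting error of 0.021, the latter was not apart from 0 by the 95% counting interval. Nkx2-3 was close to 0 at 0.022 with the abundance trend removed and 0.023 with the GC and density trends removed. The remaining 6 genes turned under at least 1 setting. Nkx3-2, Nkx2-9, Nkx2-6 and Nkx2-1 did so when scaled to the total, and Nkx6-2 and Nkx2-5 with a trend removed.

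Other genes of the same pathways were taken from lists and given regions by the same rule. Some genes met several regions and some shared a region, so the regions of a list are not separate genes. Of 28 other genes of ventral patterning, from the Sonic hedgehog ligand and its receptors to ventral forebrain factors, 24 had a region and 24 of their 29 regions were higher in MommeD43, with a median difference of 0.32. Scaled to the total, 19 of the 29 were higher and the median was 0.081, and the share of all regions that was higher went from 60.2% to 37.1%. The highest was Gsx2, a homeobox factor of the lateral ganglionic eminence, at 1.89, followed by Gli1, a transcriptional target and effector of hedgehog signalling, at 0.67. The lowest were a region of Sim1, a hypothalamic bHLH factor, at −1.19, whose other region had 0.12, and Hhip, a hedgehog-binding inhibitor, at −1.06. Boc, Olig1 and Olig2 were among the genes without a region.

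Of 20 genes that mark progenitor and neuron classes along the neural tube, 19 had a region, and 18 of these regions were higher, with a median of 0.38. Scaled to the total, 14 of 19 were higher, and with the GC and density trends removed 10 of 19 were, with a median of 0.00058. At that last setting 49.9% of autosomal regions, the class of this list, and 55.9% of all regions were higher. Pax6, a factor of dorsal forebrain and neural tube progenitors, was highest at 1.18 and Lhx3, a motor neuron factor, followed at 0.45. The Pax6 region was sparse in WT, at 33.4 normalized counts per kb, so the limit on regions called in MommeD43 alone holds for it. Sp8 was lowest at −0.74, and Dbx2 had no region. All 18 dorsal patterning genes had a region, and 23 of 24 regions were higher, with a median of 0.51 (19 of 24 when scaled to the total). Beside both lists, 60.2% of all regions were higher as deposited and 37.1% when scaled to the total. The signalling ligand Bmp4 (1.62) and the homeobox gene Msx1 (0.90) were highest, and a region of Pax3 (−0.70, beside 0.35 for its other region) and that of Olig3 (0.067) were lowest.

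Among 20 other NK and NKL homeobox genes, 19 had a region, and 16 of 18 regions were higher, with a median of 0.40 (14 of 18 when scaled to the total). The shares of all regions were 60.2% and 37.1%. Barhl2 (0.70) and Barhl1 (0.62) were highest, and Bsx (−0.019) and a region of Barx2 (−0.013, beside 0.15 for its other region) lowest. Of these regions 1 is also a member region. Medians of 0.25 for the Nkx members and 0.32 to 0.51 for these lists stood beside 0.28 for broad autosomal regions with a gene start, and no list was tested against another. Of those broad regions 80.2% were higher as deposited and 54.7% when scaled to the total.

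A chromatin mark gives no RNA level, so the labelled cell type was checked only by which marker genes lay in a region. Of 18 markers of NSCs and cortex, 7 had no H3K27me3 region, among them Sox2, Sox9, Fabp7, Vim, Notch1 and Nr2e1. The other 11, with Pax6, Emx2 and Lhx2 among them, had a region, as did all 10 Nkx genes. This check therefore cannot settle the cell type. These 11 marker genes met 12 regions, with a median density of 48.7 normalized counts per kb in WT. The densest had 184, beside the Nkx median of 185. Of the 12 regions 10 were higher in MommeD43, beside 60.2% of all regions. The median difference of the 12 regions was 0.19, and −0.050 when scaled to the total, where 5 of 12 were higher beside 37.1% of all regions. Pax6 (1.18) and Emx2 (0.60) were highest, and a region of Lhx2 (−0.31, beside 0.22 for its other region) was among the lowest. The regions of Pax6 and Emx2 were sparse in WT, at 33.4 and 24.1 normalized counts per kb. The limit on regions called in MommeD43 alone therefore holds for both.

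**Figure D5:**
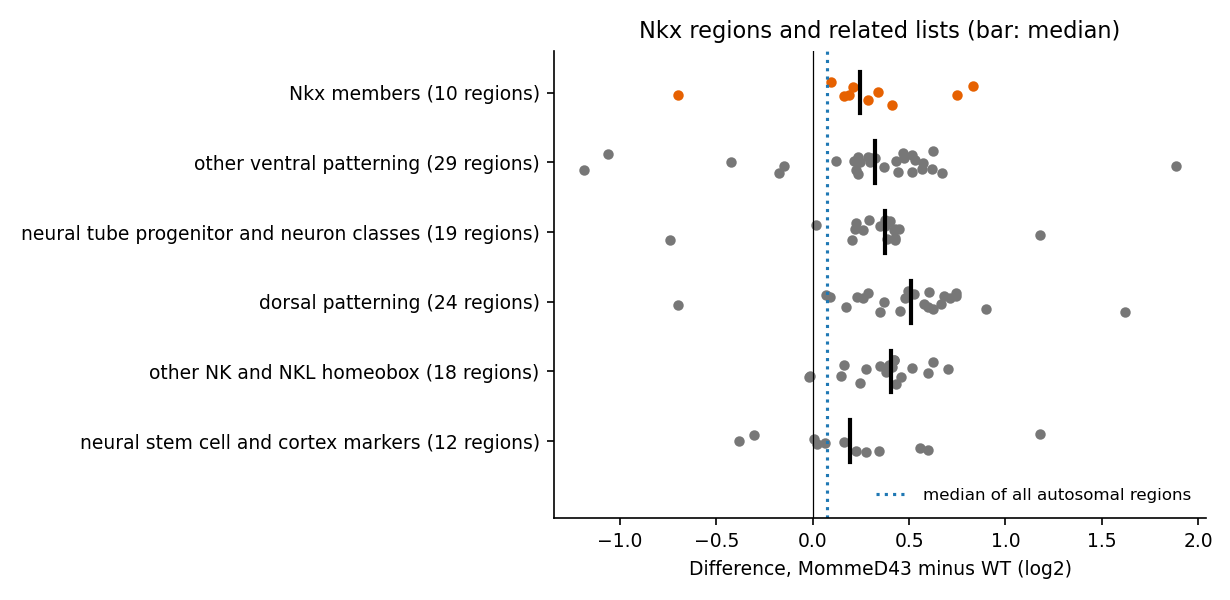
Difference (MommeD43 minus WT, log2) of every region of the Nkx members and of 5 gene lists, with a bar at the median of each and a dotted line at the median of autosomal regions (0.075). Each median lies right of 0, from 0.19 for NSC and cortex markers to 0.51 for dorsal patterning genes, and Nkx2-4 (−0.70) stands apart from the other members.

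For each member, the autosomal region with a protein-coding gene start whose WT and MommeD43 log2 densities were nearest was looked up, a likeness over 2 values only. Because both values enter the match, a matched region also has a similar difference. Nkx6-1 was nearest to the region of Ebf3, a neuronal transcription factor gene, and Nkx2-2 to that of Thy1. Nkx2-5 was nearest to the region of Dlx5 and Dlx6 and Nkx2-3 to that of Sim2, all developmental regulators. Nkx2-4 had the least close match, the region of the retinoic acid synthesis gene Aldh1a2, at a distance of 0.11 on the log2 scale. The remaining matches were Foxi3 for Nkx2-1, Tcf20 and Nfam1 for Nkx2-6, Calcb for Nkx2-9, Gsg1l for Nkx6-2, and Pom121l2 and Prss16 for Nkx3-2.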

How the data were processed

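The authors trimmed reads with Trim Galore 0.4.4, aligned them with Bowtie2 2.3.4.1 to GRCm38.p6, called peaks per genotype on merged replicates, widened and joined the peaks, and counted reads in them. The deposited values are log2 counts per region, scaled by the authors to library size and pooled over the 3 ChIP libraries per genotype, without division by length or subtraction of whole cell extract. The labels describe MNase digestion where the study's methods for this mark describe sonication, so the fragmentation is uncertain.

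Differences are MommeD43 minus WT. Density is the antilog of the value divided by region length. In 8582 rows the end in the region name differs from the end column. The end column was used, since mean log2 values correlated with its log2 length at 0.927 (0.468 for the name).

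The antilog of 3 times a log2 value is a product of 3 counts times a constant. Of products under 30000, 1138 of 1139 (99.9%) in WT and 681 of 684 (99.6%) in MommeD43 came within 0.1 of a whole number. This gave reads per library, and from them a Poisson counting error and its 95% interval. The recovery step was run on simulated Poisson counts only, which cannot show how well the counting error holds in real libraries.

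Genes came from GENCODE mouse release 21, promoters from RefSeq on GRCm38.p6, and GC content from the same build. Trends were running medians over 40 bins, fitted on autosomal regions for GC content and density. The members and lists were chosen with earlier results of these data known. Text names all members, protein-coding genes starting in their regions, the nearest region by density, and of each list the 2 highest and 2 lowest genes, except some genes that are not reported here. The antisense transcripts at Nkx2-2 and genes overlapping a region without starting in it were named outside this rule. Neighbouring regions, their values with the GC trend removed and the broad comparison regions were chosen after the data were seen. Python 3.11.15, numpy 2.4.6, pandas 2.3.3, pysam 0.24.0 and matplotlib 3.10.9 were used.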

Additional observations from a re-analysis of the deposited data

How the results depend on the processing

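The median difference over the 10 Nkx regions was 0.25 as deposited, 0.0041 when scaled to the total of the regions, 0.17 when scaled to the autosomal median, −0.072 with the abundance trend removed and 0.026 with the GC and density trends removed. The number of members higher in MommeD43 was 9 as deposited, 5 when scaled to the total and 4 with the abundance trend removed, beside 60.2%, 37.1% and 50.1% of all regions. With the abundance trend removed 1 member was past 1, Nkx2-4 at −1.003. Scaling to the total turned Nkx3-2 (−0.035), Nkx2-9 (−0.054), Nkx2-6 (−0.079) and Nkx2-1 (−0.15). Removing the abundance trend turned Nkx2-5 (−0.033), Nkx3-2 (−0.11), Nkx2-9 (−0.11), Nkx2-6 (−0.14) and Nkx2-1 (−0.22). Removing the GC and density trends turned Nkx6-2 (−0.037), Nkx2-5 (−0.043) and Nkx2-6 (−0.088). Scaled to the total, the list medians were 0.081 for ventral patterning, 0.14 for neural tube classes, 0.27 for dorsal patterning, 0.16 for other NK and NKL genes and −0.050 for NSC and cortex markers. With the GC trend removed they were 0.22 for neural tube classes, 0.34 for dorsal patterning, 0.22 for other NK and NKL genes and 0.023 for NSC and cortex markers. With the GC and density trends removed, a setting added for the lists after the data were seen, they were 0.16 for ventral patterning, 0.00058 for neural tube classes, 0.22 for dorsal patterning, 0.041 for other NK and NKL genes and −0.044 for NSC and cortex markers. The cause was not tested. A flank of 0 or 10 kb met the same 10 regions, a pseudocount of 10 left the median at 0.25 and the count at 9, and a minimum of 50 reads per library could remove no member. No paired analysis was possible because both genotypes have only pooled values, and leaving out each replicate was not run for the same reason. With pooled columns the spread between cell lines is unknown for every value.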
